A study of Mus musculus with 6 samples.

Results

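The report covers 10 genes of ion and water transport in colonocytes, the absorptive epithelial cells of the colon, in total RNA-Seq of mouse colonic crypts. The genes *Car1*, *Car4*, *Slc26a3*, *Slc9a3*, *Atp12a*, *Aqp4*, *Aqp8*, *Scnn1a*, *Cftr* and *Guca2a* were chosen by name, and all 10 were among the 18049 genes of the expression table. The mice were a model of Lynch syndrome, an inherited predisposition to colorectal cancer. Both groups were of the same genotype on a C57BL/6J background, in which *Villin-Cre* deletes a loxP-flanked gene in the intestinal epithelium and a knocked-in humanized *TgfβRII* gene carries a microsatellite repeat. The Cre is driven by the *Villin* promoter, so the deletion was targeted to epithelial cells of control and treated mice alike. All mice ate a Western-style diet from 8 weeks of age. For 9 weeks, 3 mice received GSK503, an inhibitor of the H3K27 methyltransferase EZH2, by tail vein at 200 μg/kg, and 3 control mice received captisol in PBS. The paper calls the injections biweekly and does not say whether that means 2 times a week or every 2 weeks. The ages of the 6 mice at collection were not given in the sources used here. The comparison asks how transport genes of the crypt differed after EZH2 inhibition.

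Colonocytes absorb salt and water and secrete bicarbonate. At the apical membrane, sodium enters in exchange for protons through NHE3 (*Slc9a3*) and chloride enters in exchange for bicarbonate through DRA (*Slc26a3*), while carbonic anhydrases supply protons and bicarbonate. Sodium also enters through the channel ENaC, chloride leaves crypt cells through CFTR, and water follows by osmosis.

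Each library came from the crypts of 1 mouse. The values are TMM-scaled CPM, estimated counts per gene scaled to a common library total that is corrected for composition. From the smallest step between values, the libraries held an estimated 108162848 to 135085027 counts, and a floor of 3 counts corresponded to between 0.0228 and 0.0271 CPM, which covers counting error only. The epithelial markers *Krt8*, *Epcam*, *Cldn7*, *Cdh1* and *Vil1* summed to between 8884 and 9757 CPM in control mice and between 9418 and 10779 CPM in treated mice. The 4 distal colon markers summed to between 149 and 174 CPM in control mice and between 173 and 200 CPM in treated mice, with *Hoxb13* the highest and *Hoxd12* near 0. The 8 small intestine enterocyte markers summed to between 345 and 398 CPM in control mice and between 347 and 381 CPM in treated mice. Most of that sum was *Slc5a1* and *Apob*, whereas the brush border enzyme gene *Sis* stayed at or below 3.69 CPM. *Sis*, *Lct*, *Apoa1* and *Apoa4* were each highest in control mouse 2, with *Apoa4* at 6.11 CPM there and at most 0.035 CPM in any other mouse. *Slc5a1* and *Fabp6* were highest in control mouse 1, and *Apob* and *Slc10a2* in treated mouse 3. The groups also differed in sex-linked genes. *Xist* lay between 0.42 and 0.94 CPM in control mice and between 825 and 1236 CPM in treated mice, and the Y-linked *Eif2s3y* was listed at 0 in every treated mouse and was at least 51.3 CPM in every control mouse. Treatment and sex therefore cannot be told apart in any comparison of these groups.

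Markers of several cell types differed between the groups as well. For each of the 6 goblet cell markers the lowest treated mouse exceeded the highest control, against 9.84% of all genes tested. Their sums lay between 10661 and 19018 CPM in control mice and between 33078 and 51366 CPM in treated mice. Most of each sum was *Clca1* and *Fcgbp*. The fold of treated over control mice ran from 1.39 for *Zg16* to 5.2 for *Clca1*. Of 6 enteroendocrine markers, 5 were lower without overlap between the groups, against 9.22% of all genes, with sums of 199 to 247 CPM against 125 to 160 CPM. The 7 markers of the crypt base and of cycling cells summed to between 1181 and 1315 CPM in control mice and between 958 and 1110 CPM in treated mice. Of these, 2, *Mki67* and *Top2a*, lay wholly lower in treated mice, against 9.22% of all genes. The others, among them *Lgr5* and *Ascl2*, overlapped between the groups. Smooth muscle markers summed to between 20.3 and 80.4 CPM in control mice, to 4.36 and 4.07 CPM in treated mice 1 and 2, and to 110 CPM in treated mouse 3. The 10 markers of mature surface colonocytes summed to between 7669 and 8482 CPM in control mice and between 8549 and 8610 CPM in treated mice. Their part in the results on transport genes was not tested, and in bulk RNA fewer cells of a type and less RNA per cell cannot be told apart.

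Levels were compared between genes per kilobase (kb) of the canonical transcript in GENCODE. *Car1*, a cytosolic carbonic anhydrase, was the most abundant of the 10, with 1734 ± 197 CPM per kb (SD, n = 3 control mice). *Guca2a*, which encodes the peptide guanylin, followed with 674 ± 183 CPM per kb. The water channel gene *Aqp4* at 194 ± 43.7 CPM per kb and the membrane-anchored carbonic anhydrase gene *Car4* at 160 ± 7.55 CPM per kb overlapped in the control mice. *Slc26a3* at 83.9 ± 10.4, *Aqp8* at 72.1 ± 25.5 and *Slc9a3* at 63.8 ± 12.6 CPM per kb also overlapped as neighbours in this order. *Cftr* had 45.6 ± 4.43, *Atp12a* 28.1 ± 12.6 and *Scnn1a*, the α subunit of ENaC, 11.5 ± 2.67 CPM per kb, and the last 2 overlapped. The highest and the lowest of the 10 lay 151-fold apart. In 4 of the 9 pairs of neighbours, the ranges of the control mice overlapped.

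**Figure D1:**
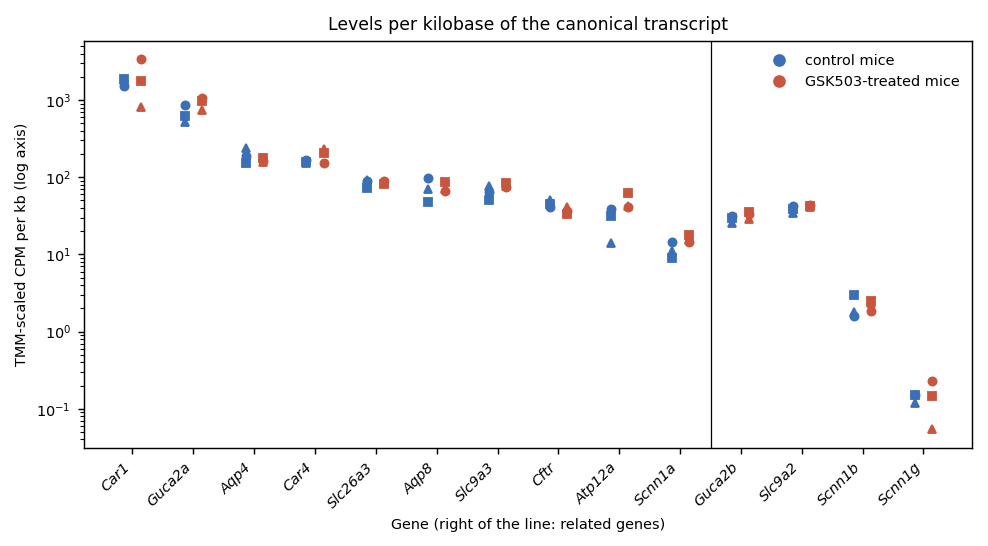
Levels of the 10 transport genes, ordered by their mean in control mice, and of 4 related genes, in TMM-scaled CPM per kb of the canonical transcript on a log axis. Each point is 1 mouse, blue for control and red for GSK503-treated, with a circle, square or triangle for mouse 1, 2 or 3 of its group. *Car1* and *Guca2a* stand above the rest, and *Scnn1b* and *Scnn1g* lie far below *Scnn1a*.

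None of the 10 genes passed an adjusted p of 0.05 between GSK503-treated and control mice. In limma's test on log2(value + 0.1) with Benjamini-Hochberg adjustment over 16670 genes, 0 of the 10 genes were called, against 0.642% of all genes tested, and the lowest adjusted p among the 10 was 0.217, for *Scnn1a*. At an unadjusted p below 0.05, 5 of the 10 passed, against 13.3% of all genes. These were *Scnn1a*, *Atp12a*, *Guca2a* and *Slc9a3* with higher means in treated mice and *Cftr* with a lower mean. Limma-voom gave the same counts, 0 called and 5 at an unadjusted p below 0.05. The treated mice lay wholly above the control mice for 2 of the 10 genes, *Atp12a* and *Scnn1a*, against 9.84% of all genes. They lay wholly below for 1 of the 10, *Cftr*, against 9.22% of all genes. Because the 10 genes were chosen with earlier results of these data known, these shares are descriptive and were not tested. The median log2FC of the 10 was 0.19, and that of all genes tested was -0.01. The median of the 10 was 0.077 with library size and 0.11 with epithelial markers as the scaling, 0.082 without control mouse 2 and 0.32 without control mouse 1. Without treated mouse 2, 0 of the 10 had an unadjusted p below 0.05. Over all genes, 83 were called higher and 24 lower with the authors' scaling. With library size as the scaling there were 83 higher and 178 lower calls, and the median log2FC over all genes stood at -0.12.

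**Figure D2:**
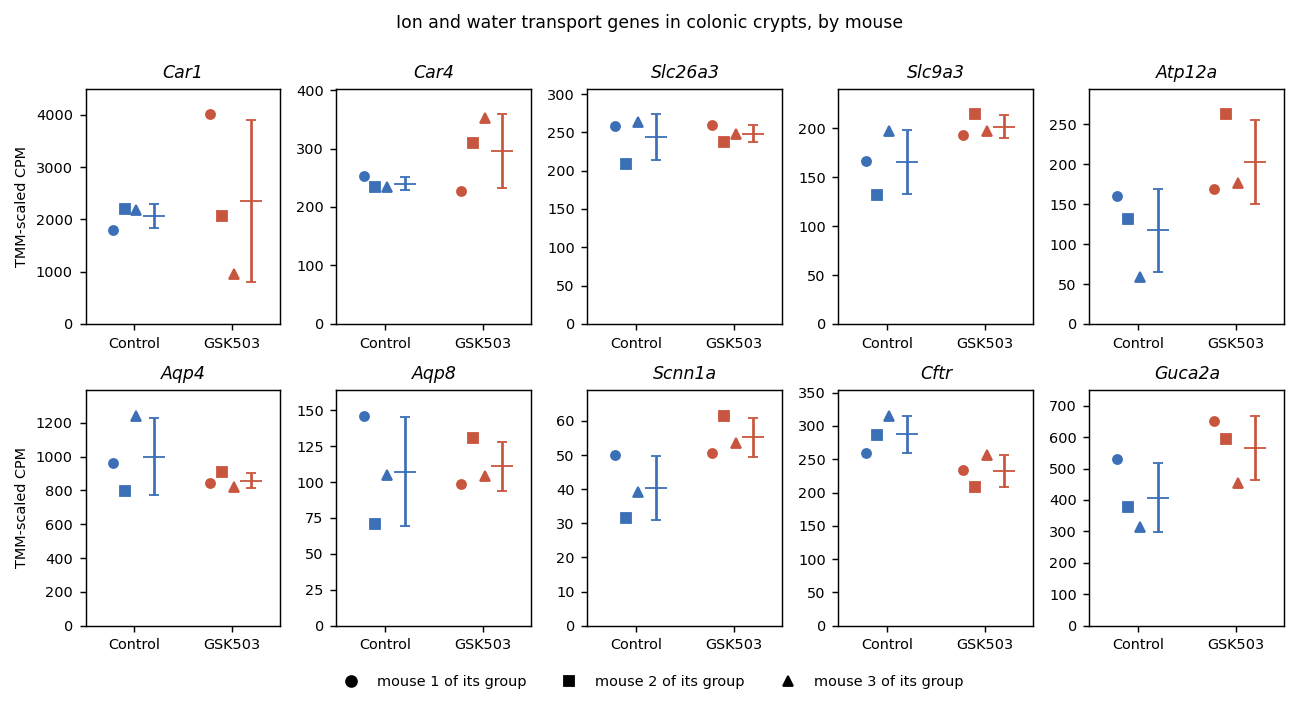
TMM-scaled CPM of the 10 transport genes in each mouse, on linear axes that start at 0. Symbols are mice 1, 2 and 3 of each group, and the bar and whiskers beside them are the mean and SD of the 3 mice. The *Car1* values of the treated mice run from 954 to 4019, while the groups do not overlap for *Atp12a*, *Scnn1a* and *Cftr*.

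**Figure D3:**
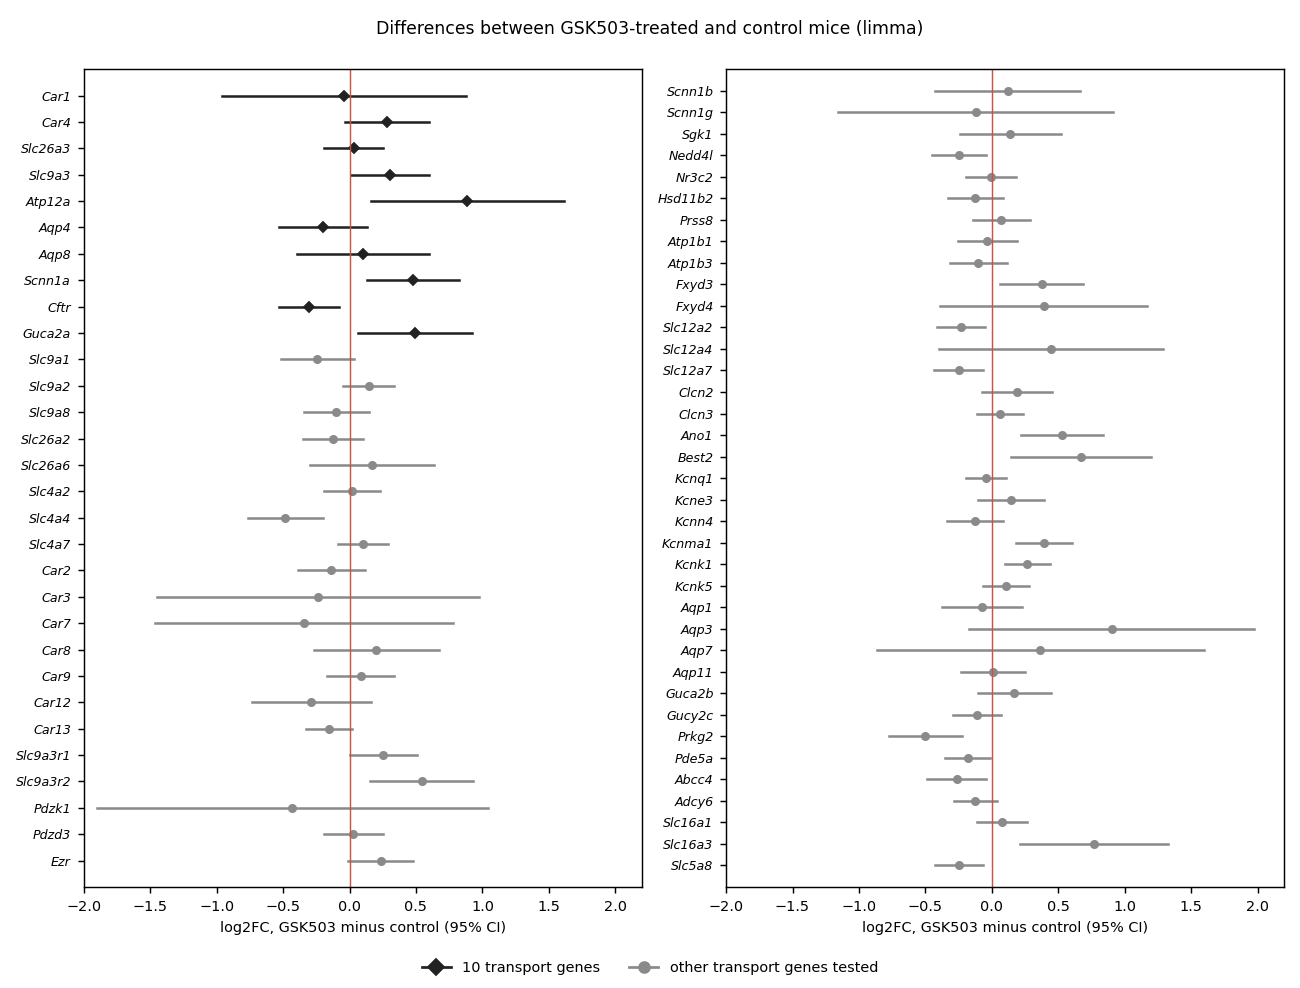
Difference between GSK503-treated and control mice for the 10 transport genes (black diamonds) and 57 of the 58 other transport genes tested (grey circles), as log2FC on the log2(value + 0.1) scale with limma's 95% confidence interval. Values right of the red line, which marks no difference, are higher in treated mice. None of these genes passed the adjusted threshold of 0.05.

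Within acid-base exchange, *Car1* (ENSMUSG00000027556, chromosome 3 of GRCm39, 14831269 to 14873459, minus strand) had the widest spread among the treated mice. Its values were 1791, 2206 and 2185 CPM in control mice 1, 2 and 3 and 4019, 2069 and 954 CPM in GSK503-treated mice 1, 2 and 3. Treated mouse 1 was above every control mouse and treated mouse 3 below every one, so the treated mice enclosed the controls. The group means were 2060 ± 234 and 2347 ± 1551 CPM (SD, n = 3 mice each). The log2FC, a difference between means of log2 values, had the opposite sign to the difference of these means, at -0.04 (SE 0.41, adjusted p = 0.979 by limma), whose 95% confidence interval of -0.96 to 0.88 includes differences of nearly 2-fold either way. The difference of the log2 means was -0.55 without treated mouse 1 and 0.49 without treated mouse 3.

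*Car4* (ENSMUSG00000000805, chromosome 11, 84848020 to 84856879, plus strand) showed another order. It had 253, 234 and 233 CPM in the control mice and 227, 309 and 352 CPM in treated mice 1, 2 and 3. The control mice lay close together, treated mice 2 and 3 were above them and treated mouse 1 below. The log2FC was 0.28 (SE 0.14, adjusted p = 0.44 by limma), with 0.14 without treated mouse 3 and 0.46 without treated mouse 1. Since *Car1* was highest and *Car4* lowest in treated mouse 1, the ratio of *Car1* to *Car4* CPM within a library, which does not depend on scaling, was 17.7, 6.69 and 2.71 in treated mice 1, 2 and 3. In the control mice it was 7.07, 9.44 and 9.36. The mean ratios did not separate treated from control mice (exact permutation test, two-sided p = 0.7, where 3 mice against 3 cannot go below 0.1).

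On the log2 scale, the 2 apical exchangers of salt absorption varied less than *Car1* and *Car4* among the treated mice. Among the control mice they varied more than *Car1* and *Car4*. *Slc26a3* (ENSMUSG00000001225, chromosome 12, 31440870 to 31523916, plus strand), the chloride/bicarbonate exchanger lost in congenital chloride diarrhea, had 259, 209 and 264 CPM in control mice and 259, 237 and 248 CPM in treated mice. All treated mice lay within the range of the controls, and the log2FC was 0.03 with a 95% confidence interval of -0.19 to 0.25 (adjusted p = 0.929 by limma). Its sign depended on the scaling, with -0.083 for library size. *Slc9a3* (ENSMUSG00000036123, chromosome 13, 74269360 to 74317561, plus strand) had 167, 132 and 197 CPM in control mice and 193, 215 and 197 CPM in treated mice. Control mouse 3 reached the treated range and the other 2 controls lay below it, giving a log2FC of 0.30 (SE 0.13, adjusted p = 0.351 by limma). Without control mouse 2 it was 0.15.

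*Atp12a* (ENSMUSG00000022229, chromosome 14, 56602262 to 56626010, plus strand) encodes the colonic proton/potassium ATPase, an apical pump that takes up potassium and extrudes protons. It had 161, 132 and 58.8 CPM in control mice and 169, 263 and 176 CPM in treated mice. The groups did not overlap, but treated mouse 1 exceeded control mouse 1 only slightly and control mouse 3 stood low. The means of 117 ± 52.6 and 203 ± 52.4 CPM (SD, n = 3 mice each) gave the largest log2FC of the 10 genes, 0.89 (SE 0.32, adjusted p = 0.279 by limma). Without control mouse 3 the log2FC was 0.45.

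The values of both water channel genes overlapped between the groups. *Aqp4* (ENSMUSG00000024411, chromosome 18, 15522451 to 15544039, minus strand), which encodes an aquaporin of epithelia and brain, had 960, 797 and 1242 CPM in control mice and 844, 908 and 819 CPM in treated mice. The treated mice lay close together inside the wider control range, with a log2FC of -0.20 and a 95% confidence interval of -0.53 to 0.13 (adjusted p = 0.609 by limma). It was -0.031 without control mouse 3 and -0.35 without control mouse 2. *Aqp8* (ENSMUSG00000030762, chromosome 7, 123061514 to 123067227, plus strand), an aquaporin of absorptive colonocytes, had 146, 70.7 and 105 CPM in control mice and 98.8, 131 and 104 CPM in treated mice. Control mice 1 and 2 were the highest and the lowest of the 6. The log2FC of *Aqp8* was 0.10 with a 95% confidence interval of -0.40 to 0.60 (adjusted p = 0.892 by limma), and it was -0.012 with library size as the scaling. Per kb, *Aqp4* exceeded *Aqp8* by between 1.89-fold and 3.42-fold over the 6 libraries.

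The 2 channel genes stood on opposite sides. *Scnn1a* (ENSMUSG00000030340, chromosome 6, 125297622 to 125321906, plus strand) had 50.1, 31.5 and 39.2 CPM in control mice and 50.6, 61.6 and 53.5 CPM in treated mice. Control mouse 1 and treated mouse 1 differed by less than 1 CPM, and the other control mice were lower. The log2FC was 0.48 (SE 0.15, adjusted p = 0.217 by limma), with 0.31 without control mouse 2. ENaC needs a β and a γ subunit as well, and their genes were low. Per kb, *Scnn1a* exceeded *Scnn1b* by between 3.05-fold and 9.09-fold and *Scnn1g* by between 59.0-fold and 280-fold over the 6 libraries, and *Scnn1g* had at most 0.73 CPM. The log2FC was 0.12 for *Scnn1b* and -0.12 for *Scnn1g* (adjusted p = 0.884 and 0.941 by limma).

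*Cftr* (ENSMUSG00000041301, chromosome 6, 18170686 to 18322767, plus strand), the chloride channel of crypt secretion, was the only one of the 10 to lie lower in every treated mouse. It had 260, 287 and 316 CPM in control mice and 234, 208 and 256 CPM in treated mice. The highest treated mouse, mouse 3, was just under the lowest control mouse, mouse 1. The sums of crypt base and cycling markers were also lower in every treated mouse, but most of each sum was *Mki67* and *Top2a*. The other markers of that list overlapped between the groups. *Smoc2* and *Axin2* had a log2FC of -0.13 and -0.09, and *Lgr5*, *Ascl2* and *Pcna* one of 0.02, 0.32 and 0.05. The part of these markers in the *Cftr* values was not tested. The means of 287 ± 27.9 and 232 ± 23.9 CPM (SD, n = 3 mice each) gave a log2FC of -0.31 (SE 0.10, adjusted p = 0.224 by limma, exact two-sided permutation p = 0.1). Over 20 alternative analyses the log2FC of *Cftr* stayed between -0.42 and -0.23, and its adjusted p lay between 0.0786 and 0.631. The ratio of *Cftr* to *Slc26a3* CPM, secretion against absorption of chloride within a library, was 1.004, 1.37 and 1.20 in control mice and 0.90, 0.88 and 1.03 in treated mice. These ratios overlapped, with a two-sided p of 0.2 in the exact permutation test.

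*Guca2a* (ENSMUSG00000023247, chromosome 4, 119494890 to 119496668, plus strand) encodes guanylin, a peptide that binds the receptor guanylate cyclase C (*Gucy2c*), raises cyclic GMP and thereby opens CFTR and inhibits NHE3. It had 530, 379 and 314 CPM in control mice and 653, 593 and 453 CPM in treated mice. Treated mouse 3 lay below control mouse 1, and the other treated mice were above every control. The log2FC was 0.49 (SE 0.19, adjusted p = 0.307 by limma), with 0.32 without control mouse 3. *Guca2b*, the gene of the related peptide uroguanylin, was low, with *Guca2a* between 20.3-fold and 32.6-fold above it per kb. *Gucy2c* had 410 ± 21.3 CPM in control mice and 379 ± 20.4 CPM in treated mice (SD, n = 3 mice each), for a log2FC of -0.11 (adjusted p = 0.587 by limma).

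The sequences before the start sites of these genes differed widely in CpG dinucleotides. EZH2 acts within PRC2, which is found mainly at CpG-rich promoters, so the promoters with the most and the fewest CpGs are shown. RefSeq windows of the GRCm38.p6 build, cut to the 250 bases before the start, were matched for 6 of the 10 genes. *Cftr* had 30 CpGs, and 5.19% of 32851 windows of this length had more. *Slc9a3* had 19, *Car4* 11 and *Aqp8* 5, while *Slc26a3* and *Guca2a* had 1 each, and the median window had 6. The windows of *Cftr* (chr6:18170437-18170686) and *Guca2a* (chr4:119637482-119637731), both on the plus strand, are written 5′ to 3′ with each CpG in capitals.
Cftr: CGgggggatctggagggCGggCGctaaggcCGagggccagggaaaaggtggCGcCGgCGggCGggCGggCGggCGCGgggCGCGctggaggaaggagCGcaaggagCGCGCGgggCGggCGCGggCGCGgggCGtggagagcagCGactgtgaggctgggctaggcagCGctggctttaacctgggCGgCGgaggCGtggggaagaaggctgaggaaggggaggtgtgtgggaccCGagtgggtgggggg
Guca2a: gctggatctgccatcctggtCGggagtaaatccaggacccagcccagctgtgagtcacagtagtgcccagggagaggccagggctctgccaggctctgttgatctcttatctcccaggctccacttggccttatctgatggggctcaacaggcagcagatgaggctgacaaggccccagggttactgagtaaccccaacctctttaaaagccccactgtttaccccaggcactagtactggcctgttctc
*Slc9a3* with 19 CpGs, *Car4* with 11, *Aqp8* with 5, and *Slc26a3* and *Guca2a* with 1 each had higher means in treated mice. *Cftr* with 30 had a lower mean. *Car1*, *Aqp4*, *Atp12a* and *Scnn1a* had no matched window and are missing from this comparison. Their log2FC was -0.04, -0.20, 0.89 and 0.48. With these genes missing, CpG counts cannot be set against direction over the 10 genes. None of these genes passed the adjusted threshold, and the sign for *Slc26a3* and *Aqp8* depended on the scaling. The CpG counts describe sequence only. The authors mapped histone marks by ChIP-Seq in pooled crypts of treated and control mice, and those data were not used here.

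The remaining transport pathway was described with 60 other genes, of which 59 were in the table and 58 passed the filter on low values. None was called at an adjusted p below 0.05. By limma's unadjusted p, 16 of 58 passed 0.05, 8 higher and 8 lower, or 27.6% against 13.3% of all genes. By limma-voom, 0 were called and 17 passed. The treated mice lay wholly above the controls for 8 (13.8%, against 9.84% of all genes) and wholly below for 10 (17.2%, against 9.22%). The median log2FC of the 58 was 0.02. These genes were also listed with earlier results of these data known, so their shares are descriptive and were not tested.

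*Slc12a2*, the basolateral NKCC1 cotransporter that loads crypt cells with chloride, had 454, 458 and 509 CPM in control mice and 412, 389 and 407 CPM in treated mice, without overlap (log2FC -0.23, adjusted p = 0.245 by limma). The ratio of *Cftr* to *Slc12a2* lay between 0.572 and 0.627 in control mice and between 0.534 and 0.629 in treated mice. *Slc4a4*, the basolateral sodium/bicarbonate cotransporter, was chosen after its values were seen. Its mean was 111 ± 11.6 CPM in control mice and 79.7 ± 13.5 CPM in treated mice (SD, n = 3 mice each), for a log2FC of -0.48 (adjusted p = 0.131 by limma). *Prkg2*, the cyclic GMP-dependent kinase that acts on CFTR and NHE3, had 77.4, 77.8 and 63.7 CPM in control mice and 44.7, 60.3 and 50.2 CPM in treated mice. The log2FC of *Prkg2* was -0.50 (SE 0.12, adjusted p = 0.106 by limma). With library size as the scaling, under which the median log2FC of all genes was -0.12, *Prkg2* and *Slc4a4* were called with an adjusted p of 0.0436 and 0.046. In the guanylin and cyclic nucleotide list, 4 of 6 genes lay wholly lower in treated mice, against 9.22% of all genes, and none wholly higher. Those lower were *Prkg2*, *Pde5a*, *Abcc4* and *Adcy6*. *Guca2b* and *Gucy2c* overlapped between the groups, with a log2FC of 0.17 and -0.11. The listed genes differ in role, and signalling was not measured. Of the transport lists, this one had the largest share of genes wholly lower, and it was written with earlier results of these data known. The count is therefore descriptive and was not tested.

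Several other chloride and potassium channels had higher means in treated mice. Of the 6 potassium channel genes listed, 4 had higher and 2 lower means. The lower ones were *Kcnq1* and *Kcnn4*, with a log2FC of -0.04 and -0.13 (adjusted p = 0.825 and 0.598 by limma). *Ano1*, a calcium-activated chloride channel, had 192, 166 and 137 CPM in control mice and 200, 268 and 242 CPM in treated mice, with a log2FC of 0.53 (adjusted p = 0.135 by limma). *Best2*, a bestrophin channel found in goblet cells, had a log2FC of 0.67 (adjusted p = 0.258 by limma), with goblet markers higher in the same mice. *Kcnma1*, the BK potassium channel, was chosen after its values were seen because it had the lowest adjusted p of the 58, 0.101. Its mean was 20.7 ± 1.38 CPM in control mice and 27.1 ± 1.17 CPM in treated mice (SD, n = 3 mice each).

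Genes of absorption outside the 10 showed both directions. *Slc5a8*, a sodium-coupled transporter of short-chain fatty acids, had 454, 479 and 498 CPM in control mice and 378, 421 and 408 CPM in treated mice, a log2FC of -0.25 (adjusted p = 0.219 by limma). *Slc16a3*, a lactate transporter, lay above the controls in every treated mouse at a low level, with 2.68 ± 0.342 and 4.75 ± 1.32 CPM (SD, n = 3 mice each, adjusted p = 0.216 by limma). *Slc9a3r2*, a scaffold protein that binds NHE3, had 8.01 ± 1.74 and 11.5 ± 0.624 CPM (SD, n = 3 mice each), for a log2FC of 0.54 (adjusted p = 0.212 by limma). *Ezr*, the ezrin linker of the brush border, had a log2FC of 0.23 (adjusted p = 0.401 by limma). *Slc26a2*, a sulfate transporter of colonocytes, had a log2FC of -0.12, *Car2* one of -0.14 and *Nr3c2*, the mineralocorticoid receptor gene, one of -0.01 (adjusted p = 0.643, 0.641 and 0.981 by limma). Of the other aquaporins, *Aqp1* was the highest and had a log2FC of -0.08 (adjusted p = 0.854 by limma). *Aqp3* did not exceed 0.20 CPM in any mouse, although its treated values lay above the control values (log2FC 0.90, adjusted p = 0.464 by limma). Outside absorption, *Kcne3*, from the potassium channel list, had a log2FC of 0.14 (adjusted p = 0.62 by limma).

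Spread between mice was compared with that of other abundant genes, which were not matched to the members in level. Among 2032 genes with a mean of at least 100 CPM, a bound chosen after the values were seen, the median SD of log2 values was 0.10 over the control mice and 0.08 over the treated mice. *Car1* had an SD of 1.04 over the treated mice, which 1 other gene exceeded, and 0.17 over the control mice, which 471 genes exceeded. *Car4* had an SD of 0.33 over the treated mice, exceeded by 45 genes, and 0.07 over the control mice. *Atp12a* was variable in both groups, with 0.77 over control and 0.35 over treated mice. *Aqp8* had 0.52 and *Guca2a* 0.38 over the control mice. *Aqp4* and *Slc9a3* went the other way, with an SD of 0.32 and 0.29 over the control mice and 0.08 over the treated mice for both. *Scnn1a* was below the bound. These spreads rest on 3 mice each and were not tested.

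**Figure D4:**
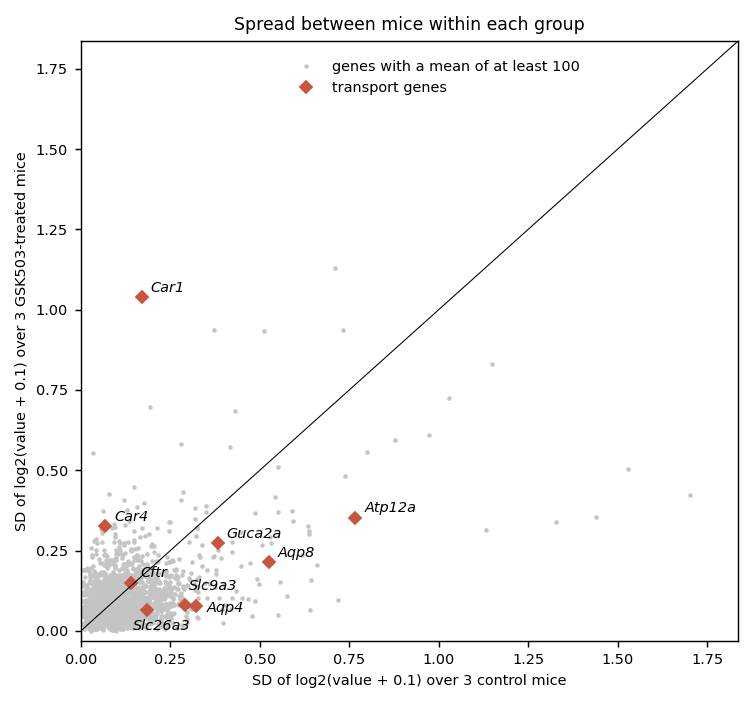
SD of log2(value + 0.1) over the 3 control mice (horizontal) and the 3 GSK503-treated mice (vertical) for 2032 genes with a mean of at least 100 CPM (grey) and the 9 transport genes among them (red). Genes above the diagonal line varied more among treated mice. *Car1* lies far above the line and *Atp12a* and *Aqp8* below it.

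Markers of mature surface colonocytes were set beside *Car1*. Of the 10 markers, 4 stood in the order of *Car1* among the treated mice, highest in mouse 1 and lowest in mouse 3, against 23.7% of all genes tested. This order was not particular to surface markers. Of 5 general epithelial markers, 3 stood in it and 0 in the opposite order. For 7 other carbonic anhydrase genes these counts were 4 and 1, and for 6 goblet markers 1 and 3. The opposite order held for 17.3% of all genes. *Guca2a*, among the 10 transport genes, also stood in the order of *Car1*. *Emp1*, an epithelial membrane protein gene, had 288, 135 and 79.0 CPM in treated mice 1, 2 and 3. *Dhrs9*, a retinol dehydrogenase gene, had 80.2, 34.9 and 30.3 CPM, and *Krt20*, the keratin of mature colonocytes, had 891, 651 and 611 CPM. *Fabp2* showed the same order, with 203, 175 and 117 CPM. *Lypd8*, a surface protein of colonocytes, stood in the opposite order, that of *Car4*, with 3367, 3937 and 4028 CPM. Treated mouse 3, the lowest in *Car1*, was also the mouse with the highest smooth muscle sum. The part of surface cells or of non-epithelial cells in the spread of *Car1* was not tested.

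**Figure D5:**
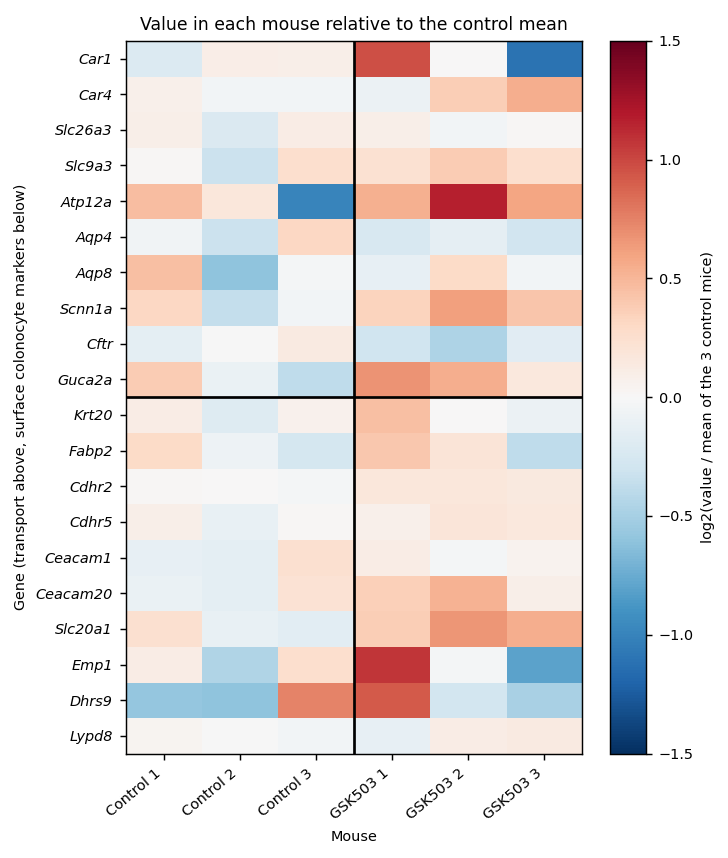
Value of each gene in each mouse relative to the mean of the 3 control mice, as a log2 ratio (red above, blue below), for the 10 transport genes and the 10 surface colonocyte markers. The columns are the 3 control and the 3 treated mice. *Car1*, *Emp1* and *Dhrs9* are above the control mean in treated mouse 1 and below it in treated mouse 3, whereas *Car4* is above it in treated mouse 3.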

How the data were processed

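Total RNA-Seq of colonic crypts was deposited for 3 control and 3 GSK503-treated mice. The authors used STAR for alignment (GRCm39), RSEM for gene-level estimates and edgeR for TMM normalization. The deposited signal is the estimated count as TMM-scaled CPM. A filter on genes is not given in the sources used here. Between 75.1% and 78% of values were whole multiples of a library's step (tolerance 0.01), so quasi-likelihood count tests were not run, and limma-voom was applied to the estimated counts as an alternative. Other alternatives were 4 scalings, 2 pseudocounts, 2 filters, robust eBayes, no trend, a replicate block, omission of sex chromosome genes or of very abundant genes, and omission of each mouse. Groups and replicate numbers came from the labels.

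Values were tested with limma 3.58.1 (R 4.3.3; lmFit, eBayes with an intensity trend) on log2(value + 0.1), with Benjamini-Hochberg adjustment over genes with at least 0.1 in at least 3 mice. A log2FC on this scale understates changes of low genes. Confidence intervals are limma's at 95%. Exact permutation tests used scipy 1.17.1. The fit was tested on simulated data. Symbols were matched to GENCODE vM39 (95.97% of genes), and *Slc9a3r1* and *Pdzd3* were not matched. Levels per kb use the Ensembl canonical transcript, and the isoforms expressed were not resolved. Named genes were the 10 members and, from the other transport lists, genes without overlap and an absolute log2FC above 0.5 and the highest gene of each list. The other ENaC, guanylin and acid-base genes and genes of the spread comparison were chosen after their values were seen. The members and lists were chosen with earlier results of these data known. *Slc4a1* was not analysed here. The name of the deleted gene and the highest gene of 1 transport list are not reported here. Gastric gland, tuft, fibroblast, endothelial, glial, macrophage, T cell and B cell markers were also summed. Figures used matplotlib 3.10.9.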

Additional observations from a re-analysis of the deposited data

How the results depend on the processing

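Under 20 alternatives, none of the 10 transport genes was called, and 7 of them kept their sign throughout. The other 3 had differences near 0. *Slc26a3* had a log2FC of -0.083 with library size and -0.053 with epithelial markers as the scaling, and *Aqp8* had -0.012 with library size. Leaving out 1 mouse at a time put the log2FC between -0.55 and 0.49 for *Car1*, between -0.076 and 0.092 for *Slc26a3* and between -0.17 and 0.36 for *Aqp8*. Of the other transport genes, 2 were called with library size as the scaling and 0 under every other alternative. Over all genes, 107 calls became 261 with library size as the scaling, 16 without an intensity trend and 33 with the replicate number as a block. Leaving out 1 mouse at a time gave between 29 and 216 calls, the lowest without treated mouse 2 and the highest without treated mouse 3. There were 44 without control mouse 2, 49 without control mouse 3 and 63 without treated mouse 1. The cause of these changes was not tested. Without an intensity trend 1 of the 10 transport genes had an unadjusted p below 0.05, and with robust eBayes or library size 3 did. Across genes, the deviations of same-numbered mice from their group means had r = 0.03, -0.13 and -0.12. Those of different-numbered mice had r between -0.175 and 0.224. With 3 mice per group these values cannot decide whether the replicate numbers pair the samples. With the replicate block 0 of the 10 genes were called. The block lowered the SE of *Guca2a* from 0.19 to 0.09 and raised that of *Scnn1a* from 0.15 to 0.17.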

Other observations

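Besides *Car1*, 4 other genes led the spread among the treated mice in the set of genes with a mean of at least 100 CPM. *Clca4b* had 134, 68.6 and 28.0 CPM in GSK503-treated mice 1, 2 and 3 and between 131 and 349 CPM in control mice. *Clca4a* had 469, 188 and 133 CPM in treated mice 1, 2 and 3 and between 73.1 and 201 CPM in control mice. *Emp1* and *Cyp2c55*, a cytochrome P450 gene, also stood highest in treated mouse 1 and lowest in treated mouse 3, with *Cyp2c55* at 243, 180 and 70.2 CPM. All 5 genes shared this order. They were picked for their spread, so the shared order is given as values with no test.

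Marker lists of further cell types gave the following sums. The 2 gastric gland markers in the table, *Atp4a* and *Muc5ac*, summed to at most 0.474 CPM in any mouse. Fibroblast markers summed to between 59.7 and 76.0 CPM in control mice and to 25.1, 33.6 and 110 CPM in treated mice 1, 2 and 3. Macrophage markers summed to 9.82, 5.86 and 30.9 CPM in treated mice 1, 2 and 3. Endothelial markers stayed at or below 7.44 CPM, enteric glial and neuronal markers at or below 4.19 CPM, and T cell markers at or below 14.3 CPM. B cell and plasma cell markers ranged from 1.90 to 72.2 CPM. Tuft cell markers summed to between 22.7 and 34.3 CPM in control mice and between 43.2 and 49.7 CPM in treated mice.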
